A study of Mus musculus with 7 samples.

Results

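The genes described here are the Slc27 fatty acid transport proteins and the fatty acid binding proteins, taken by name as 9 genes (Slc27a1 to Slc27a5, Fabp1, Fabp2, Fabp5 and Fabp7) of the 51426 genes counted in each liver. The rule used no measured value, but it was set when earlier results of these data were known. Liver mRNA came from 3 WT and 4 TET1 KO mice, all male, labelled C57BL/6J and fed a high fat diet (HFD) for 16 weeks from 8 weeks of age. The TET1 KO mice lacked TET1, an enzyme that oxidizes 5-methylcytosine in DNA, in the whole body, and were compared with littermate WT controls. By the genotype names the study uses for the RNA-seq livers, they came from the line with the Tet1tm1.1Jae allele and not from its further whole body line, which was made with a β-actin promoter driven Cre. The labels themselves say only whole body knockout. Every cell type lacked TET1 in such mice, so a difference in the liver need not have begun there.

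Fatty acids enter the hepatocyte in part through membrane proteins, and the Slc27 proteins (FATPs) both promote this uptake and join the fatty acid to coenzyme A, which traps it in the cell. Inside, the small FABPs carry the insoluble fatty acids to mitochondria, to the endoplasmic reticulum and to nuclear receptors such as PPARA, of which several of these genes are known targets. Slc27a2, Slc27a5 and Fabp1 are the forms typical of hepatocytes, whereas the other members are better known from muscle, fat, intestine, skin or brain.

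Library sizes lay between 15005277 and 22746138 counts, so that 1 CPM (the unit of counts scaled to library size) stood for about 15.0 to 22.7 counts before further scaling. The CPM given here were scaled by TMM factors as well, which lay between 0.947 and 1.061. Each library held the hepatocyte markers at 66714 to 84315 summed CPM, and 0 of the 6 markers were called by edgeR, with 1 at an unadjusted p under 0.05 and 2 called higher by DESeq2. Tet1 itself had 1 to 4 counts per library in either genotype (exact two-sided permutation test, p = 0.686). These counts cannot check the labels, because Tet1 was near the detection floor in both genotypes and reads outside the deleted part would count as well. TET1 KO replicate 2 stood apart in adipocyte markers, which summed to 19.4 CPM there and to 0.278 to 3.25 CPM in the other libraries. Of 8 clock genes tested, 2 (Dbp and Per3) were called higher, a call that Dbp lost in 5 of 7 fits without 1 liver (adjusted p up to 0.224) and Per3 in 1 (0.0604). Per2 was not called (adjusted p = 0.0501), although its genotypes did not overlap in CPM, and the other 5 overlapped between genotypes and were not called. All clock genes together summed to 346 to 447 CPM in the WT livers and 546 to 593 CPM in the TET1 KO livers. Cholangiocyte markers summed to 6.54 to 9.93 CPM in WT and 15.4 to 24.3 CPM in TET1 KO livers. Of 4 tested, 0 were called by edgeR, 3 (Sox9, Krt19 and Epcam) had an unadjusted p under 0.05 and 2 were called by DESeq2. Sox9 made up most of the sum in TET1 KO replicates 1 to 3, at 12.6, 20.8 and 14.9 CPM. Krt19 and Epcam were at 6.67 and 4.87 CPM in TET1 KO replicate 4 and at most at 1.69 and 0.985 CPM elsewhere. Without 1 liver their log2 fold changes of 1.48 and 2.09 fell to as little as 0.43 and 0.89. Endothelial markers summed to 142 to 145 CPM in WT and 117 to 141 CPM in TET1 KO livers, and stellate cell markers overlapped at 214 to 357 and 200 to 275 CPM. By edgeR 0 of the 6 genes in either list were called, with 1 endothelial and 2 stellate genes at an unadjusted p under 0.05, and the same numbers were called lower by DESeq2 (Lyve1, and Col1a1 and Col3a1). The part of these markers in the values below was not tested. The labels give no batch or time of collection, and p-values measure the spread between the mice of each group.

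All 9 members passed edgeR's filter on low counts. Of the 9, 1 (Slc27a1) was higher in TET1 KO livers at an adjusted p under 0.05 and 0 were lower by edgeR's quasi-likelihood test. Over all 14754 genes tested, 0.874% were called higher and 2.02% were called in either direction. At an unadjusted p under 0.05 there were 4 members, namely Slc27a1 and Fabp5 with higher and Slc27a4 and Fabp2 with lower fitted values in TET1 KO livers, beside 26.3% of all genes. DESeq2 called 3 members (Slc27a1, Fabp2 and Fabp5), beside 8.74% of the genes to which it gave an adjusted p. The median log2 fold change was 0.18 over the members and 0.01 over all genes tested, with 6 members above and 3 below 0. In CPM the genotypes did not overlap for 3 members (Slc27a1, Slc27a2 and Fabp5), beside 22.6% of all genes tested, and with libraries scaled by size alone they did not overlap for 1 (Slc27a1).

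**Figure D1:**
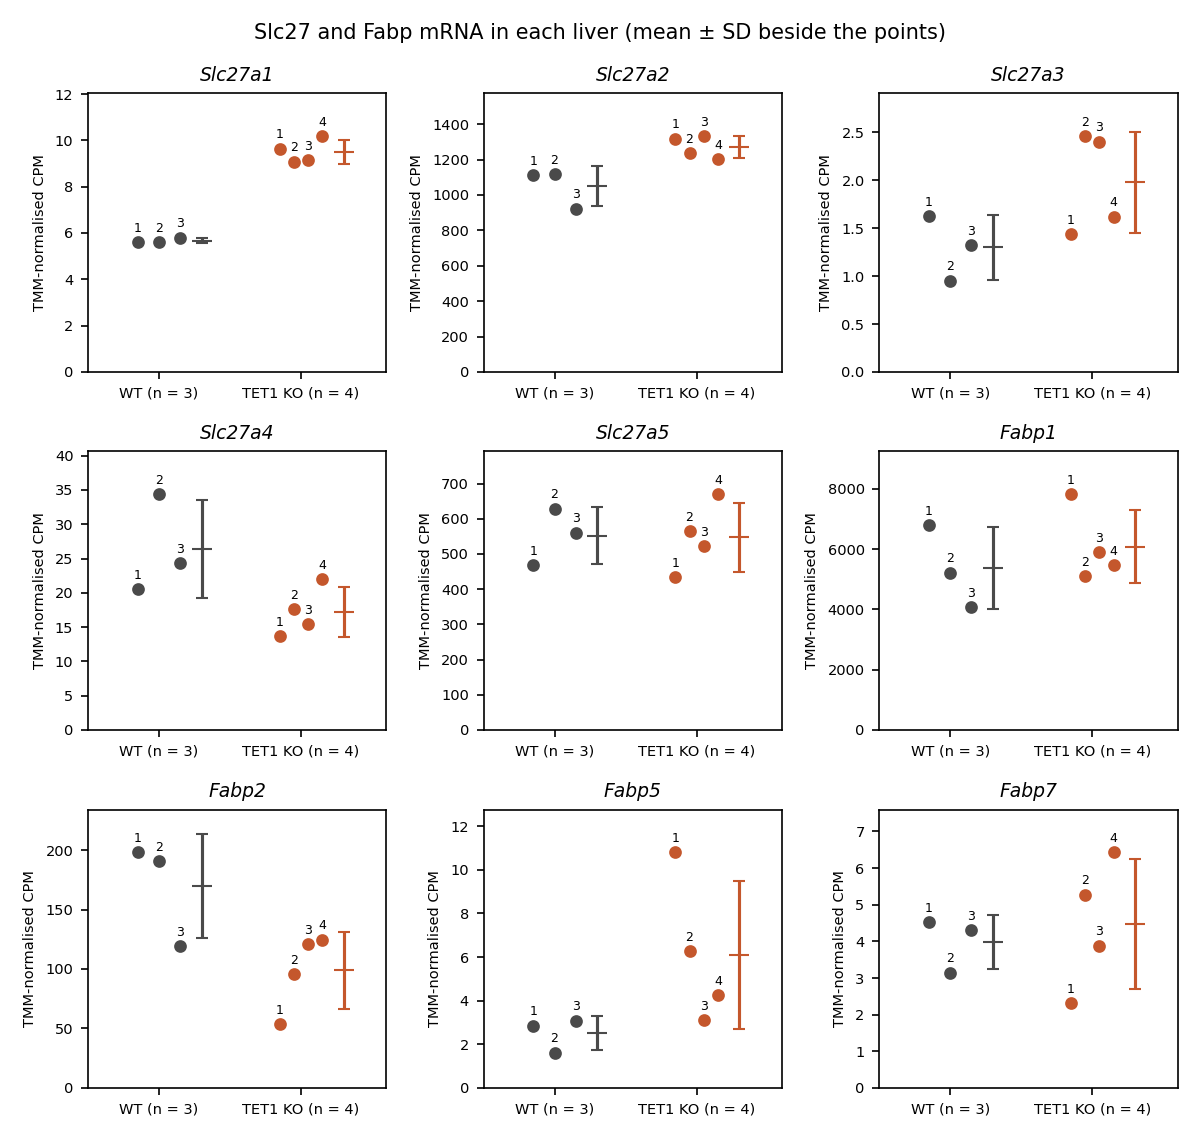
TMM-normalised CPM of the 9 genes in each liver, with WT in grey and TET1 KO in orange, the replicate number above each point and the mean ± SD beside the points, on axes that start at 0. The 4 TET1 KO points lie above the 3 WT points for Slc27a1, Slc27a2 and Fabp5, and the genotypes overlap for the other 6 genes.

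**Figure D2:**
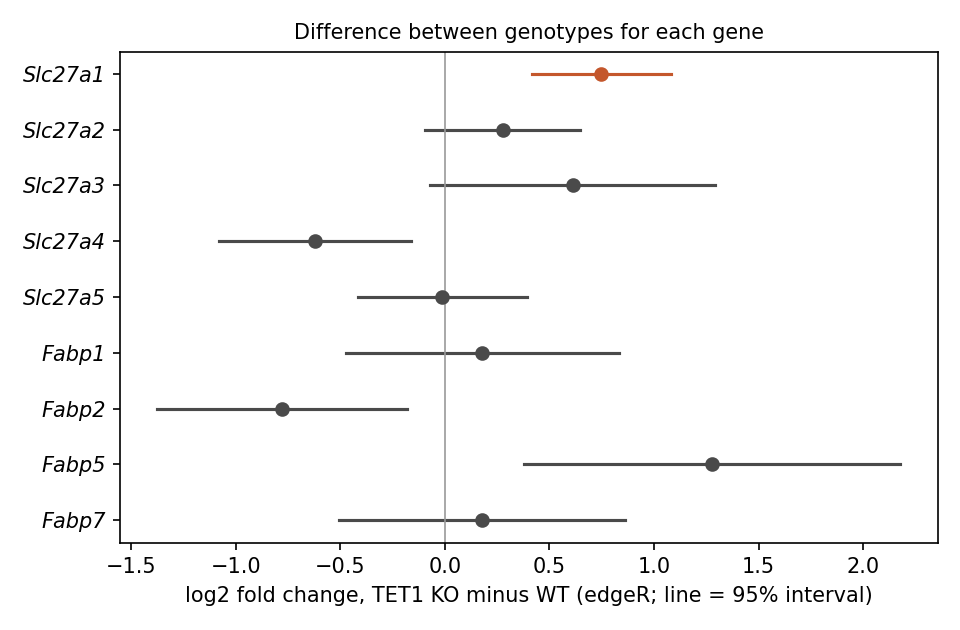
Log2 fold change (TET1 KO minus WT) of each gene from edgeR on the x axis, with its 95% interval as a line. Slc27a1, in orange, is the member called at an adjusted p under 0.05, and the intervals of Slc27a4, Fabp2 and Fabp5 also leave out 0 although their adjusted p was higher.

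Slc27a1 encodes FATP1, which is best known from muscle and fat, where insulin moves it to the cell surface. The gene (ENSMUSG00000031808) lies on chromosome 8 from 71568728 to 71587307 (GRCm38.p6, RefSeq). Since TET1 acts on methylated cytosines that stand before a guanine (CpG), the 3 starts that the RefSeq promoter table lists for Slc27a1 are shown with 250 bases before and 50 bases after each, in sequence of GRCm38.p6 on the plus strand, with every CpG in capitals. The first base of the gene as given above is not among these starts but lies inside the first window.
Slc27a1 start 1, chr8:71568621-71568920: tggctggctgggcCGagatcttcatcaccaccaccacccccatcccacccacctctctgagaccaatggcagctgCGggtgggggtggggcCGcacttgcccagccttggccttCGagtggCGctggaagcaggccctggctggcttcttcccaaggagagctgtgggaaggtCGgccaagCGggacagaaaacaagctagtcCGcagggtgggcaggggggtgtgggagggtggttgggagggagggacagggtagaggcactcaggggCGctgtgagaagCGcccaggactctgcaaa
Slc27a1 start 2, chr8:71569347-71569646: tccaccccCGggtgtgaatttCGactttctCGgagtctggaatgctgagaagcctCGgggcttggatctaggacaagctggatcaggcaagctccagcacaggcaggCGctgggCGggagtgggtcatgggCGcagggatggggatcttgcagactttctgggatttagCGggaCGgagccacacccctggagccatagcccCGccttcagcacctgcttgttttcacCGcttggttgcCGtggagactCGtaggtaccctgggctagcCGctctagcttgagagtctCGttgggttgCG
Slc27a1 start 3, chr8:71570344-71570643: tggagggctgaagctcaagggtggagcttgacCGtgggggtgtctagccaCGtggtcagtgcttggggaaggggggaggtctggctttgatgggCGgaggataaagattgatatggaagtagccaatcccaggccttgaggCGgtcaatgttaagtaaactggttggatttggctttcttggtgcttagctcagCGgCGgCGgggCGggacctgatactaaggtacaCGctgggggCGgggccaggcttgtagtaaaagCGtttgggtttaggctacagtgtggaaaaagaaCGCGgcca
They held 10, 16 and 13 CpGs, against a median of 7 over the 32851 such windows in the table. DNA methylation was not measured in these files, so the letters show where it could act and nothing of its state.

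Slc27a1 mRNA was at 5.61, 5.59 and 5.79 CPM in the WT livers and at 9.63, 9.08, 9.15 and 10.2 CPM in the TET1 KO livers. Every TET1 KO liver was above every WT liver, and the gap between the groups was wider than the range within either. On the log2 scale the fitted difference was 0.75 (SE, standard error, 0.15, 95% interval 0.42 to 1.08, edgeR adjusted p = 0.0351), a 1.68-fold difference, higher in 4 of 4 TET1 KO mice. The counts behind it were modest, 105 to 135 in WT livers and up to 220 in TET1 KO livers. The 3 WT values varied by 1.95% (coefficient of variation), less than the 9.26% that counting error alone gives at such counts. The call was close to the threshold. Without any 1 of 6 of the livers (all but TET1 KO replicate 4) the adjusted p rose to between 0.0558 and 0.149, the highest without WT replicate 2, while the log2 fold change stayed between 0.71 and 0.76. Scaled by library size alone, the log2 fold change was 0.66 and the adjusted p 0.0521. The study also names Slc27a1 among several genes that were higher in TET1 KO mice. Of those genes, it reports Enho alone as increased in mice that lacked TET1 in the liver only. Such mice are not among these data.

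Of the other tested genes, chosen by likeness to Slc27a1 so that a separation of the genotypes was fixed by the choice, Impa1, Entpd4b and Gcat came nearest to the pattern of Slc27a1 over the 7 livers, with root mean square differences of standardized log2 CPM of 0.199, 0.205 and 0.207. Their levels in TET1 KO and WT livers were 86.1 ± 2.10 and 67.0 ± 1.53 CPM for Impa1 (SD, n = 4 and 3). Entpd4b was at 24.0 ± 0.598 and 14.0 ± 0.792 CPM and may share reads with its near copy Entpd4. Gcat was at 47.3 ± 2.50 and 30.6 ± 1.36 CPM.

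Slc27a4, which encodes FATP4 and is the main form of intestine and skin, leaned the other way. Its start on chromosome 2 (gene from 29802634 to 29817522) is shown in the same manner for comparison with Slc27a1.
Slc27a4, chr2:29802384-29802683: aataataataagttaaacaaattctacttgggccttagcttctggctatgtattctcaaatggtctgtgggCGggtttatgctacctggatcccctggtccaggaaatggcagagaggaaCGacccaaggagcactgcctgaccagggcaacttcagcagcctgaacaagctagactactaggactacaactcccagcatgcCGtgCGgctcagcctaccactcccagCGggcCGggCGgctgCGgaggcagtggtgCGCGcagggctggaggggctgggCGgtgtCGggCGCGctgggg
This window held 14 CpGs, within the range of the Slc27a1 windows. Slc27a4 mRNA was at 20.5, 34.4 and 24.3 CPM in the WT livers and at 13.6, 17.6, 15.4 and 22.0 CPM in the TET1 KO livers. The groups overlapped, since TET1 KO replicate 4 lay above WT replicate 1. The log2 fold change of -0.62 (SE 0.21, 95% interval -1.08 to -0.16) did not pass the test over all genes (adjusted p = 0.103 from edgeR, 0.0619 from DESeq2). Without WT replicate 2, the highest liver, it was -0.39 (adjusted p = 0.412). With livers of the same replicate number taken as a block, it was -0.74 and was called (edgeR adjusted p = 0.0303).

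Because Slc27a1 and Slc27a4 leaned in opposite directions, their raw counts were set against each other within each liver, where no scaling between libraries enters. This ratio was chosen after the values were seen and was therefore not tested. There were 27.3, 16.3 and 23.8 Slc27a1 counts for every 100 Slc27a4 counts in the WT livers and 70.6, 51.6, 59.3 and 46.3 in the TET1 KO livers. The lowest TET1 KO liver was thus above the highest WT liver. The ratio of the 2 hepatocyte forms, Slc27a2 counts per Slc27a5 count, was also looked at, and it overlapped, at 1.65 to 2.38 in WT and 1.79 to 3.04 in TET1 KO livers.

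Slc27a2 encodes FATP2, the very long-chain acyl-CoA synthetase of liver and kidney, on chromosome 2 from 126553024 to 126588243. It was the Slc27 gene with the most counts in every liver and held 60.9 to 74.2% of the counts of the 5 Slc27 genes, without regard to their lengths. Its mRNA was at 1112, 1116 and 923 CPM in the WT livers and at 1318, 1234, 1333 and 1202 CPM in the TET1 KO livers. The groups did not overlap on this scale but did when libraries were scaled by size alone, and the log2 fold change of 0.28 (SE 0.17, 95% interval -0.10 to 0.65) did not pass the test (adjusted p = 0.312 from edgeR). A rise of more than 0.65 on the log2 scale is outside this interval. Without WT replicate 3, the lowest liver, the log2 fold change was 0.17 (adjusted p = 0.633).

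Slc27a5 encodes FATP5, found almost wholly in liver, which takes up fatty acids and also activates bile acids so that they can be joined to taurine or glycine. The gene lies on chromosome 7 from 12988346 to 12998192. It was at 468, 629 and 560 CPM in the WT livers and at 434, 565, 522 and 670 CPM in the TET1 KO livers. Both the lowest and the highest liver were TET1 KO, and the fitted log2 difference was -0.01 (SE 0.18, 95% interval -0.42 to 0.39, adjusted p = 0.973 from edgeR), so that a difference of up to about 0.4 in either direction is not left out. Baat, which completes the conjugation of the bile acids that FATP5 activates, also did not pass, with a log2 fold change of -0.10 (adjusted p = 0.749).

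Slc27a3 (chromosome 3, 90385230 to 90390835), whose product acts mainly as an acyl-CoA synthetase inside the cell, had the fewest counts of the 5, 23 to 47 in a library. It was at 1.62, 0.953 and 1.32 CPM in the WT livers and at 1.44, 2.46, 2.40 and 1.62 CPM in the TET1 KO livers. TET1 KO replicates 2 and 3 were above all WT livers and the other two were within their range. The log2 fold change of 0.61 (SE 0.31, 95% interval -0.07 to 1.29) did not pass the test (adjusted p = 0.231 from edgeR), and counting error alone amounted to 17.5 to 19.6% of a value.

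Fabp1, the liver FABP, is a known target of PPARA, which with RXR binds direct repeats of AGGTCA. The start of Fabp1 (gene on chromosome 6, 71199879 to 71205034) is shown with this hexamer in capitals, searched on both strands.
Fabp1, chr6:71199629-71199928: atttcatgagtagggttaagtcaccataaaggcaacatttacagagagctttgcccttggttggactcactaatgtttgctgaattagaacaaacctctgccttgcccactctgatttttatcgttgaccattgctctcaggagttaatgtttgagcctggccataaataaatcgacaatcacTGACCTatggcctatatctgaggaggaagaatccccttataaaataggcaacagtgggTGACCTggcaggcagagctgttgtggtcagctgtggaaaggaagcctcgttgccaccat
It held 2 copies, both read as TGACCT on the printed strand. They stand well apart in the sequence, so they are 2 single hexamers and not shown to form such a repeat. The windows of Slc27a2 and Fabp7 held 1 copy each, and those of the other members in the promoter table held none. A copy on either strand was found in 16.3% of all windows in the table, and 1.8% held at least 2. The match is a description of the letters and not of binding.

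Fabp1 mRNA alone made up 0.413 to 0.767% of all counts of a liver. It was at 6797, 5215 and 4081 CPM in the WT livers and at 7829, 5109, 5896 and 5473 CPM in the TET1 KO livers. The groups overlapped widely, with a fitted log2 difference of 0.18 (SE 0.30, 95% interval -0.47 to 0.83, adjusted p = 0.72 from edgeR). Without WT replicate 3, the lowest liver, it was -0.004. The spread between livers of a group was 25.4% in WT and 19.9% in TET1 KO, while counting error was 0.309 and 0.312%, so depth did not limit this comparison.

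Fabp2, the intestinal FABP, binds long-chain fatty acids in enterocytes and is made at a lower level in liver. Its gene lies on chromosome 3 from 122895072 to 122899506, within the noncoding gene 4933405D12Rik, which had 21 counts over all 7 libraries together. The start of Fabp2 is shown with CpGs in capitals, as for Slc27a1.
Fabp2, chr3:122894822-122895121: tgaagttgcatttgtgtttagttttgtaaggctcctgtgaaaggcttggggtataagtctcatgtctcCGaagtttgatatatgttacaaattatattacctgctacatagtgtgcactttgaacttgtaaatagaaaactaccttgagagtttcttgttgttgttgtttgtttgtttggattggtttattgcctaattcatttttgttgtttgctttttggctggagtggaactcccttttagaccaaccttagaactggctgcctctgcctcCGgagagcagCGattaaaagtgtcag
It held 3 CpGs, as did that of Fabp1, and 31.4% of all windows held no more than this. The windows of Slc27a2, Slc27a3 and Fabp7 held 25, 20 and 6. Fabp2 mRNA was at 198, 191 and 119 CPM in the WT livers and at 53.7, 95.7, 121 and 125 CPM in the TET1 KO livers. WT replicate 3 lay just under TET1 KO replicates 3 and 4, and the other WT livers were above all TET1 KO livers. The fitted log2 difference was -0.78 (SE 0.27, 95% interval -1.37 to -0.18), with an adjusted p of 0.112 from edgeR and 0.0455 from DESeq2. Enterocyte markers were at or near 0, with a sum of 0 to 0.88 CPM over the 6 markers, 4 of which had no more than 3 counts in any library, and Sis had none.

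Within each liver, Fabp2 had 2.92, 3.66 and 2.92 counts for every 100 Fabp1 counts in WT and 0.686, 1.87, 2.05 and 2.28 in TET1 KO mice. This was the other of the 3 ratios, all chosen after the values were seen and not tested. It did not overlap between the genotypes, although the CPM of both genes did. TET1 KO replicate 1 had the highest Fabp1 and the lowest Fabp2 level of the 7 livers.

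**Figure D3:**
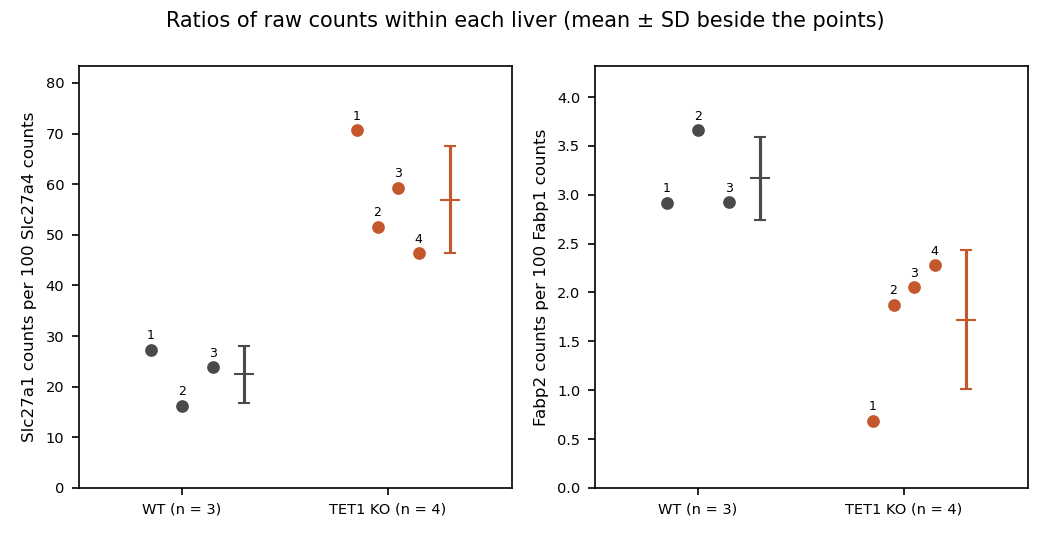
Slc27a1 counts per 100 Slc27a4 counts (left) and Fabp2 counts per 100 Fabp1 counts (right) in each liver, from raw counts, with the replicate number above each point and the mean ± SD beside the points. TET1 KO livers lie at 46.3 to 70.6 against 16.3 to 27.3 in WT on the left, and at 0.686 to 2.28 against 2.92 to 3.66 on the right.

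Fabp5, the epidermal FABP, is found in skin, macrophages and fat cells and carries fatty acids to PPARD among other partners. Its gene lies on chromosome 3 from 10012585 to 10016610. It was at 2.85, 1.62 and 3.09 CPM in the WT livers and at 10.8, 6.26, 3.12 and 4.26 CPM in the TET1 KO livers. Every TET1 KO liver was above every WT liver, but TET1 KO replicate 3 barely so, and the TET1 KO livers differed among themselves by up to 3.47-fold. The log2 fold change of 1.28 (SE 0.41, 95% interval 0.38 to 2.18) was the largest of the 9 genes but did not pass the test over all genes (adjusted p = 0.0956 from edgeR, 0.0298 from DESeq2). The counts were 39 to 58 in WT and 61 to 173 in TET1 KO livers, and Fabp5l2, a copy of the gene, had none.

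Fabp5 is also made by macrophages and fat cells, so the markers of these cells were set beside it. The liver with the highest Fabp5 level, TET1 KO replicate 1, had the lowest summed Kupffer cell and macrophage markers of the 7 livers (130 CPM, against 157 to 293 CPM in the others) and 0.313 CPM of adipocyte markers. The lipid-associated macrophage markers summed to 56.8 CPM in that liver, again the lowest, and Spp1 (30.7 CPM) and Lpl (18.6 CPM) made up most of this sum. Of the 5 lipid-associated macrophage markers, Cd9 was called lower in TET1 KO livers (log2 fold change -1.04, adjusted p = 0.0259, over 0.05 in 4 of 7 fits without 1 liver). The other 4 were not called and leaned in different directions. Spp1 had a log2 fold change of 0.58 (adjusted p = 0.0859 from edgeR, 0.0551 from DESeq2), with every TET1 KO liver above every WT liver, and Lpl one of -0.09 (adjusted p = 0.879). Trem2 and Gpnmb had log2 fold changes of -0.81 (adjusted p = 0.287) and -1.53 (adjusted p = 0.164). In fits without 1 liver these ranged from -1.214 to -0.285 and from -1.985 to -0.317. TET1 KO replicate 2, with the highest adipocyte markers, was second in Fabp5. Without it the log2 fold change of Fabp5 was 1.25 (adjusted p = 0.16), and without TET1 KO replicate 1 it was 0.85 (adjusted p = 0.172). The values set beside Fabp5 are those of single livers, and the part of macrophages or fat cells in its level was not tested. In whole liver RNA, fewer cells of a type cannot be told apart from less RNA in each cell.

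Fabp7, the brain FABP of radial glia, which is also known to cycle over the day in liver, was at 4.52, 3.15 and 4.30 CPM in the WT livers and at 2.31, 5.28, 3.88 and 6.44 CPM in the TET1 KO livers. Both the lowest and the highest liver were TET1 KO, and the log2 fold change was 0.18 (SE 0.31, 95% interval -0.51 to 0.86, adjusted p = 0.737 from edgeR). Its gene (chromosome 10, 57784923 to 57788450) lies 5.02 Mb from Tet1 (62804570 to 62887469), where sequence from the strain in which the allele was made can remain around the deletion. Of 89 tested genes within 10 Mb of Tet1, 0 were called higher by edgeR (4 at an unadjusted p under 0.05, 2 by DESeq2) and 1 (Arid5b) lower, that is 1.12%, with a median log2 fold change of -0.11.

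Compared per length (CPM per kb of exon, with exon lengths from GENCODE M1), the 9 genes differed widely in level in WT livers. Fabp1 stood alone at 9700 ± 2467 CPM per kb (SD, n = 3) and ranked 7 among the 13469 tested genes with an exon length. Slc27a2 at 280 ± 29.5, Slc27a5 at 226 ± 33.0 and Fabp2 at 176 ± 45.3 CPM per kb followed, and neighbours among these 3 overlapped in WT livers. Slc27a4 at 5.99 ± 1.63, Fabp7 at 3.19 ± 0.591 and Slc27a1 at 2.03 ± 0.0396 CPM per kb came next and did not overlap in WT livers. Fabp5 at 0.706 ± 0.222 and Slc27a3 at 0.506 ± 0.131 CPM per kb were lowest and overlapped.

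In TET1 KO livers the order of the 9 means was the same. Slc27a2 (339 ± 17.0 CPM per kb, SD, n = 4), Slc27a5 (224 ± 40.1) and Fabp2 (102 ± 33.9) did not overlap there, while Slc27a4 (3.89 ± 0.818), Fabp7 (3.58 ± 1.43) and Slc27a1 (3.40 ± 0.185) did, and no difference in these overlaps between the genotypes was tested. The exon length of Fabp5 in GENCODE M1, 3567 bases, is long beside the 4026 bases that RefSeq gives for the whole gene in another build, so its level per kb depends on how much of that length the mRNA in liver includes.

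**Figure D4:**
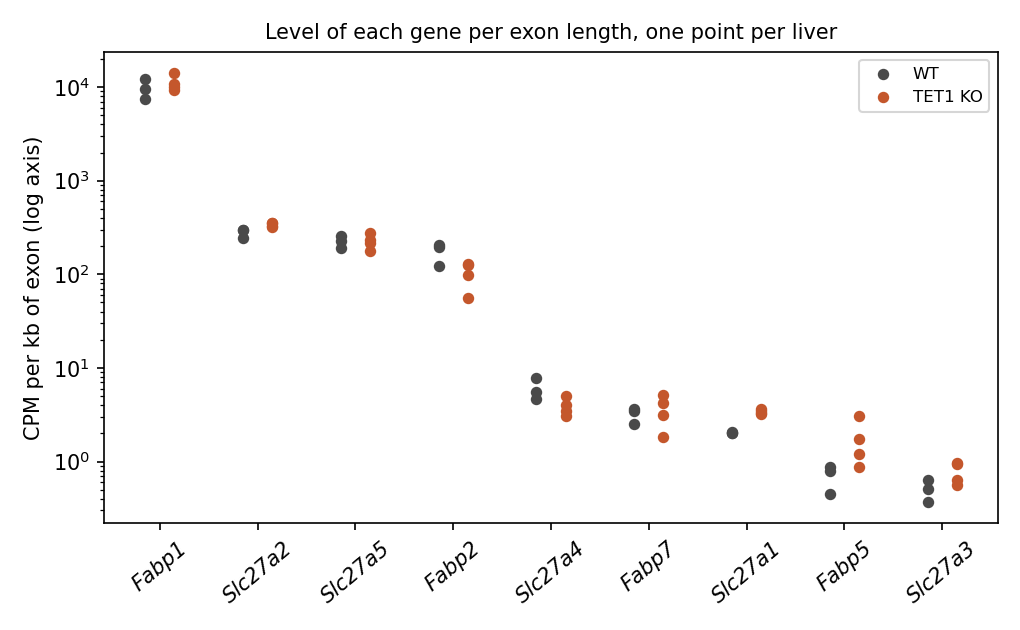
CPM per kb of exon on a log axis for the 9 genes, ordered by their WT mean, with 1 point per liver, WT in grey and TET1 KO in orange. Fabp1 lies between 7379 and 14157 CPM per kb, Slc27a2, Slc27a5 and Fabp2 between 55.7 and 355, and the other 5 genes under 8 CPM per kb.

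Most other genes of the 2 families had few or no counts. Slc27a6 had no more than 2 counts in any library, Fabp6 and Pmp2 had none, Fabp12 had no more than 3, and Fabp9 had 4 counts in TET1 KO replicate 4 and none elsewhere. Fabp3, the heart FABP, had 56 counts in TET1 KO replicate 2, 4 in TET1 KO replicate 4 and none in the other livers. Fabp4, the adipocyte FABP, was at 22.0, 15.2 and 13.1 CPM in the WT livers and at 7.88, 51.9, 8.02 and 9.22 CPM in the TET1 KO livers. TET1 KO replicate 2 was far above all others, and it was also the liver with the most adipocyte markers. With all livers the log2 fold change of Fabp4 was 0.19 (SE 0.61, adjusted p = 0.863 from edgeR), and without that liver it was -1.02 (adjusted p = 0.0641).

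Among 21 further genes of fatty acid uptake, binding and activation, 13 could be tested, and 1 was called lower and 0 higher, beside 1.15% of all genes tested called lower, with a median log2 fold change of -0.10. At an unadjusted p under 0.05 there were 4 lower and 0 higher, beside 26.3% of all genes in either direction. DESeq2 called 3 lower and 0 higher, beside 8.74% in either direction. The called gene was Cd36, the fatty acid translocase, at 160, 200 and 107 CPM in the WT livers and 8.76, 22.7, 18.7 and 29.2 CPM in the TET1 KO livers (log2 fold change -2.97, SE 0.34, adjusted p = 0.00346 from edgeR). Cd36 kept its call in every alternative, with an adjusted p of up to 0.0288. Its difference was not tested against those of the members.

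Of 11 transcriptional regulators of these genes, all tested, 1 was called lower and 0 higher, beside 1.15% and 0.874% of all genes tested. Unadjusted p was under 0.05 for 1 lower and 2 higher, near the 26.3% of all genes in either direction. DESeq2 called 1 lower and 0 higher, beside 8.74% in either direction, and the median log2 fold change was 0.10. The called gene was Pparg, at 17.1, 15.4 and 8.11 CPM in the WT livers and 2.44, 6.05, 4.34 and 4.68 CPM in the TET1 KO livers (log2 fold change -1.63, SE 0.31, adjusted p = 0.0265), a call lost without WT replicate 1 (adjusted p = 0.0549), WT replicate 2 (0.149) or TET1 KO replicate 3 (0.0786). Ppara was at 38.7 to 66.6 CPM in WT and 36.5 to 63.2 CPM in TET1 KO livers (log2 fold change -0.09, SE 0.23, adjusted p = 0.83). Hnf4a, a master regulator of hepatocyte genes, was at 336 to 445 and 410 to 464 CPM (log2 fold change 0.12, SE 0.15, adjusted p = 0.645).

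Of 12 PPARA targets other than the members, 3 were called lower and 0 higher, beside 1.15% and 0.874% of all genes tested. Unadjusted p was under 0.05 for 4 lower and 1 higher, beside 26.3% of all genes in either direction. DESeq2 called 4 lower and 0 higher, beside 8.74% in either direction. The median log2 fold change was -0.44, against 0.01 over all genes tested. Vnn1, a pantetheinase, differed by -3.28 on the log2 scale (SE 0.33, adjusted p = 0.00224). Cyp4a14, a fatty acid hydroxylase, differed by -2.15 (SE 0.44, adjusted p = 0.0382) and Plin2, a lipid droplet coat protein, by -1.01 (SE 0.21, adjusted p = 0.0382). The calls of Cyp4a14 and Plin2 were both lost without WT replicates 1 or 2 or TET1 KO replicates 1, 2 or 3, with adjusted p of 0.0515 to 0.191, and that of Cyp4a14 also with robust dispersions (adjusted p = 0.08).

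**Figure D5:**
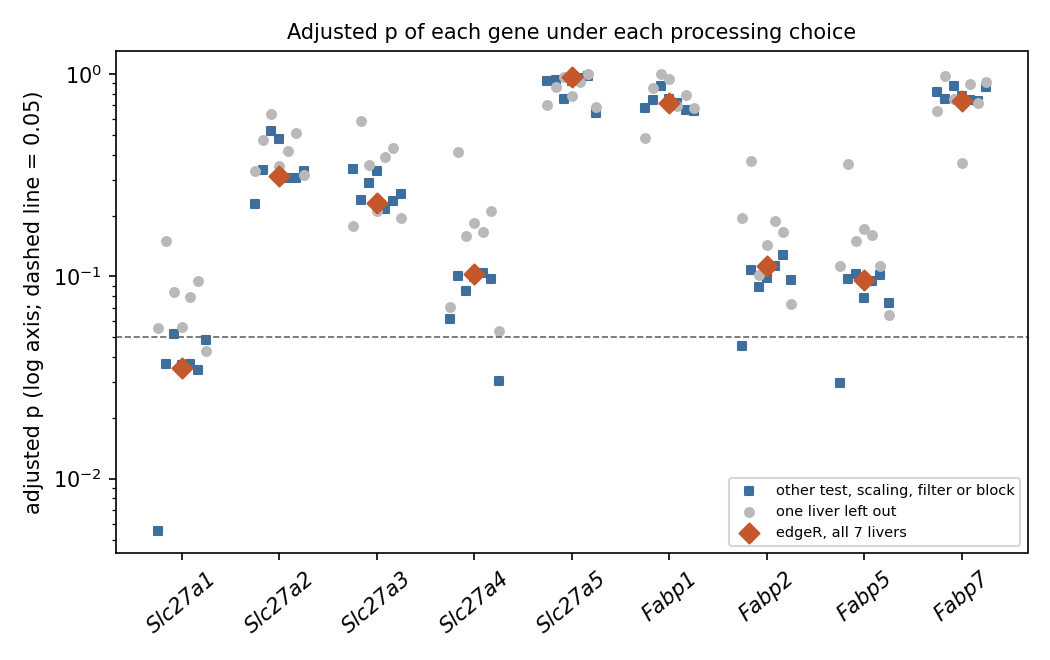
Adjusted p of each gene on a log axis, with an orange diamond for edgeR on all 7 livers, blue squares for another test, scaling, filter or the replicate block, and grey circles for fits without 1 liver. The points of Slc27a1 lie on both sides of the dashed line at 0.05, those of Slc27a4, Fabp2 and Fabp5 cross it in 1 setting each, and those of the other 5 genes stay above it.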

How the data were processed

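The authors deposited raw counts per gene for each liver, without normalization. The labels' processing notes name Trimmomatic 0.36, GSNAP, featureCounts 1.5.3 and the build GRCm38. Libraries were stranded, but the strand setting of the counting, its treatment of reads with several matches and the annotation release are not given in the sources used here. Tables were joined by Ensembl identifier.

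The analysis used edgeR 4.0.16 in R 4.3.3 (filterByExpr, TMM, quasi-likelihood test, no covariates), with Benjamini-Hochberg adjustment over the 14754 genes tested and a threshold of 0.05. DESeq2 1.42.0, other scalings and filters, robust dispersions, a replicate block and leaving out each liver were alternatives. The fits were tested on simulated data. Log2 CPM used a prior count of 2. Figures were drawn with matplotlib in Python 3.11. Gene positions and promoter sequences were matched by symbol to RefSeq tables of GRCm38.p6, which held 7 of the 9 members as promoters. Exon lengths came from GENCODE M1, an annotation of another build, by identifier, and no coordinates printed here were taken from it. Its own coordinates were used to look for genes that overlap a member, which gave Gm16762 for Slc27a2 as well as 4933405D12Rik for Fabp2.

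The members and lists were chosen with earlier results of these data known. The genes named are the 9 members, the other members of both families, Tet1, Ppara, Pparg, Hnf4a, every called gene of the lists and the 3 genes nearest to the member with the smallest p. Baat, Arid5b, the marker and clock genes and the ratios were named after their values were seen. Enho is named from the study.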

Additional observations from a re-analysis of the deposited data

Results flagged for a closer look

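In the 4 TET1 KO livers, 39 quantities were checked for a liver far from the other 3. In 5 of them the gap to the nearest liver over the range was above Dixon's 95% critical value. Chance gives about 5% for independent quantities with a normal spread, which not all of these have. Of these, 3 concerned TET1 KO replicate 2, namely the adipocyte markers (0.982), Fabp4 (0.97) and Fabp3 (0.953). In that liver Adipoq had 60 counts and Plin1 had 70, while neither exceeded 9 counts in any other library. The other 2 concerned TET1 KO replicate 4, in which Fabp9 (1.0) had 4 counts against none in the others, and the enterocyte markers (0.884) summed to 0.88 CPM. With 3 livers at 0 the value of Fabp9 could only be 1.0, so its flag was fixed in advance. Fabp3 and the enterocyte markers were also at or near 0 in the other TET1 KO livers. The 3 flags of TET1 KO replicate 2 are not known to be independent. The 5 flags therefore cannot be set against the share that chance gives. No gap of this size was found for any of the 9 members.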

How the results depend on the processing

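Over 14 alternatives for each member, 111 of 126 log2 fold changes kept their direction and their side of the threshold. By setting, DESeq2 gave -0.80 for Fabp2 (adjusted p = 0.0455) and 1.26 for Fabp5 (adjusted p = 0.0298), both then called, so that it called 2 members higher and 1 lower. Scaling by library size alone gave 0.66 for Slc27a1 and called 0 members higher, and it left 1 member (Slc27a1) without overlap. It moved the median log2 fold change by -0.09 and the share of calls that were higher from 43.3% to 25.5%. Leaving out each liver gave log2 fold changes of 0.71 to 0.76 for Slc27a1, 0.17 to 0.31 for Slc27a2, -0.79 to -0.39 for Slc27a4, -0.129 to 0.086 for Slc27a5, -0.004 to 0.37 for Fabp1, 0.85 to 1.49 for Fabp5, -0.062 to 0.389 for Fabp7, -1.02 to 0.45 for Fabp4, -0.29 to 0.21 for Ppara and -0.016 to 0.18 for Hnf4a, with 0 to 1 members called higher. Over all genes, 0.874% of those tested were called higher and 169 genes lower, against 626 and 689 with DESeq2, 245 and 347 without the filter, 671 and 656 with the replicate block, and 16 to 427 and 21 to 464 without a liver (fewest without WT replicate 2, most without TET1 KO replicate 4), and 312 lower with library size alone. Called lower in the uptake list were 3 genes with DESeq2, 2 with the block and 1 to 2 without a liver, in the regulator list 0 to 1 without a liver, and among PPARA targets 1 to 4 without a liver. The causes were not tested.

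With the replicate block the log2 fold change of Slc27a4 was -0.74 (adjusted p = 0.0303, 1 member called lower), that of Fabp7 -0.10, that of Fabp4 -0.16 and that of Ppara 0.023. The labels do not say that equal numbers mark paired mice. Deviations of same-numbered livers correlated at 0.209, -0.123 and -0.096, and WT replicate 2 correlated best with TET1 KO replicate 4 (0.311). With so few livers, these values cannot tell whether the mice were paired. Slc27a3, Slc27a1, Fabp5 and Fabp7 had 23 to 220 counts in a library. Counting error exceeded the spread between livers for Slc27a1, whereas for Fabp5 the spread was wider (55.5% against 10.5% in TET1 KO livers), and for Fabp7 as well (39.8% against 12.3%). The overlap count and the settings for lists and list genes were added after seeing the data.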
